A study of Homo sapiens with 27 samples.

Results

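The 39 genes of the human HOX clusters were described across T47D cells that carried a truncated GATA3 or an empty vector. The members were the genes whose symbol in the count table was HOX, a cluster letter from A to D and a number, which gave 39 of the 26485 genes counted: 11 HOXA, 10 HOXB, 9 HOXC and 9 HOXD genes. HOX genes encode homeodomain transcription factors that set position along the body axis of the embryo. They lie in 4 clusters, and the number in a name gives the paralogue group, so that genes with low numbers lie at one end of each cluster and are used anteriorly, and genes with high numbers lie at the other end and are used posteriorly. Adult cells, breast epithelium included, keep part of this pattern, which Polycomb and trithorax proteins maintain and which retinoic acid can change. HOX proteins often bind DNA with TALE cofactors such as PBX and MEIS.

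T47D is an established line of luminal breast cancer. RNA-seq was made from 4 lines: cells infected with the pHAGE empty vector (control), and cells that expressed a GATA3 mutant (Splice del, C321fs or A333fs) with a 3xTy1 tag from a lentiviral vector. Each line was a puromycin-selected pool that kept its own wild-type GATA3, and gave 3 libraries. The labels give fewer than 10 passages for all libraries. They name a medium with insulin, transferrin and selenium on collagen-treated plates, whereas the methods of the study name high-glucose DMEM, so the medium of these libraries is not settled. Each mutant was present in 1 pool, so the mutant and any other property of its pool cannot be told apart, and a p-value measures the spread between the 3 libraries of a pool. The 12 libraries held 27872208 to 36788024 counted fragments, of which 14425 to 21447 lay on HOX genes. All 10 luminal epithelial markers, ESR1, FOXA1 and GATA3 among them, were above the floor, and their summed level was 16888 to 23515 TPM (counts per exon length, scaled to the same total in each library), against at most 30.5 TPM for 7 basal markers. Markers of other cell types summed to 11.7 to 21.8 TPM (6 fibroblast genes), at most 3.46 TPM (4 leukocyte genes) and at most 0.0323 TPM (3 endothelial genes).

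HOXC genes held most of the HOX RNA in every line, HOXB genes most of the rest, and HOXA and HOXD genes very little. A gene was taken as expressed in a line when each of its 3 libraries held at least 1 CPM (counts scaled to library size with TMM factors), and as at the floor when none held more than 3 counts. By this measure C321fs cells expressed 17 HOX genes, control and Splice del cells 16 each, and A333fs cells 14. The set common to all 4 lines had 13 genes: HOXA5, HOXA11, HOXB2, HOXB3, HOXB7 and all HOXC genes except HOXC12. A further 5 genes, HOXA3, HOXB4, HOXB5, HOXB6 and HOXC12, were expressed in some of the lines, and their levels lay between 0.606 and 2.65 CPM. CPM does not correct for gene length, so the set depends on the measure. HOXA6, a short gene not expressed by it in any line, had at least 1.29 TPM in every library. HOXB6 and HOXC12 were also above 1 TPM in every library, whereas HOXA11 had 0.859 to 0.962 TPM in control. At the other end, 11 genes were at the floor in all 4 lines, among which HOXA9, HOXA13, HOXB13, HOXD4 and HOXD8 had 0 counts in all 12 libraries. A count of 0 allows up to 3 counts, which was 0.0774 to 0.104 CPM in these libraries, so a level below that was not detectable at this depth.

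**Figure D1:**
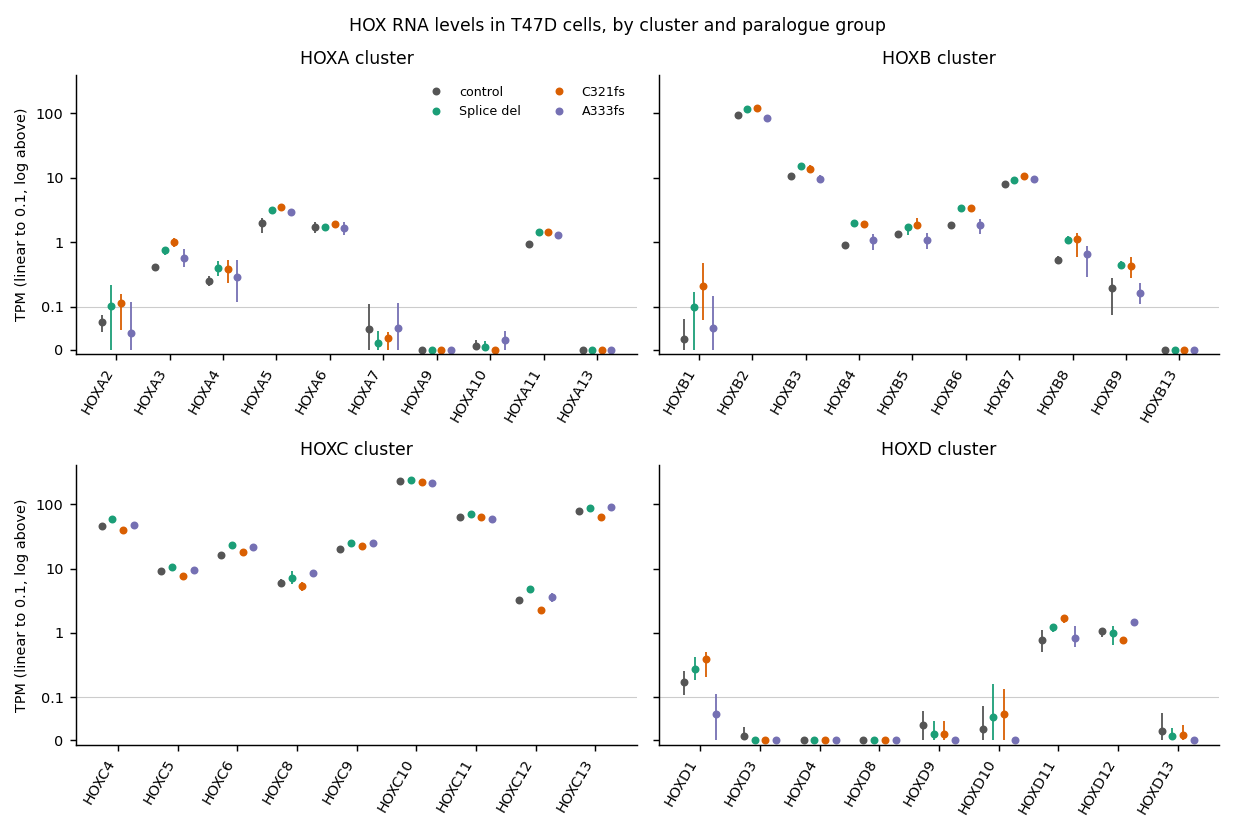
Level of the HOX genes shown, in TPM, on an axis that is linear up to 0.1 and logarithmic above it, by cluster and paralogue group. Points are means of 3 libraries and bars reach from the lowest to the highest library. HOXC10 was highest with 225 TPM in control, and HOXA9, HOXA13, HOXB13, HOXD4 and HOXD8 stand at 0 in all lines.

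The HOXC cluster (chromosome 12, 53938792 to 54056030, hg38) was expressed along its whole length. In control cells the posterior gene HOXC10, which is known from the patterning of lumbar motor neurons, had the highest level per length of all HOX genes, 225 ± 0.742 TPM (SD, n = 3). HOXC13, a gene known for its part in hair and nail formation, followed within the cluster with 79.6 ± 0.479 TPM, HOXC11 with 62.3 ± 1.14 TPM and HOXC4 with 45.8 ± 0.377 TPM. The lowest was HOXC12 with 3.21 ± 0.393 TPM, although it lies between HOXC11 and HOXC13. The 5 genes of paralogue groups 9 to 13 held 81.7% ± 0.315 (SD, n = 3) of the HOXC counts in control cells, and between 77.97% and 82.4% in the other libraries. HOXC10 alone held 45.5% of the HOXC counts in control and 42.2% to 46.96% in the mutant lines.

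HOXC4, HOXC5 and HOXC6 start at the same base of the counting annotation and share 563 exon bases, 24.0%, 25.9% and 25.1% of their exons. Fragments in the shared exon were assigned to no gene, so the 3 values came from the remaining exons. With the shared length left out, the control levels were 60.2 TPM for HOXC4, 12.2 TPM for HOXC5 and 21.8 TPM for HOXC6. RefSeq gives HOXC4 and HOXC5 a single promoter window, shown because it stands for this common start; it lies on the plus strand at chr12:54016638-54016937 (GRCh38.p14), runs from 250 bases before to 50 bases after the start, and holds 15 CpG. Capitals would mark a GATA or HOX-PBX motif, and this window has neither.
HOXC4 and HOXC5 promoter: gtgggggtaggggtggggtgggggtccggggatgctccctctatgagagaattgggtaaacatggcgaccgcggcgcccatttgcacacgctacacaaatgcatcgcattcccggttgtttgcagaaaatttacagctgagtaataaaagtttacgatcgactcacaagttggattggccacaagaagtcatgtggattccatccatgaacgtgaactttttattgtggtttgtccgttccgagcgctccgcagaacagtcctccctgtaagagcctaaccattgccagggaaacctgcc

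The HOXB cluster (chromosome 17, 48529445 to 48728749) had most of its RNA towards the anterior end. HOXB2, a gene of hindbrain patterning, had 95.7 ± 2.55 TPM in control cells and was second to HOXC10 among all HOX genes. HOXB3, its neighbour, had 10.5 ± 0.401 TPM and HOXB7 had 7.91 ± 0.262 TPM. HOXB2 held 72.6% of the HOXB counts in control and 69.6% to 70.5% in the mutant lines. HOXB4, HOXB5, HOXB6, HOXB8 and HOXB9 lay between 0.193 TPM (HOXB9) and 1.84 TPM (HOXB6) in control cells. HOXB1 had at most 6 counts in any library and HOXB13 had 0.

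HOXA (chromosome 7) and HOXD (chromosome 2, 176092804 to 176190907) were close to silent. The HOXA genes summed to 4.43 ± 0.497 CPM in the control libraries and 5.27 ± 0.304 CPM in A333fs, 5.62 ± 0.224 CPM in Splice del and 6.57 ± 0.799 CPM in C321fs (SD, n = 3). The HOXD genes summed to 1.23, 1.08, 1.33 and 1.73 CPM in the same order, and none was expressed in any line at the limit of 1 CPM. Per length, HOXD11 had at least 1.04 TPM in each Splice del and 1.45 TPM in each C321fs library. HOXD12 had at least 1.35 TPM in each A333fs library. HOXA5 and HOXA6 were the highest HOXA genes, with 1.95 ± 0.486 and 1.70 ± 0.352 TPM in control cells, where their libraries overlapped. With the 13.1% of its exon bases shared with HOXA-AS3 left out, HOXA6 had 1.95 TPM in control. In the mutant lines HOXA5 was the higher of them, with means of 2.97 to 3.48 TPM against 1.64 to 1.92 TPM. HOXD11 and HOXD12 were the highest HOXD genes, with 0.787 ± 0.316 and 1.06 ± 0.175 TPM in control cells, and HOXD11 was the higher of them in Splice del (1.23 against 0.984 TPM) and C321fs cells (1.71 against 0.787 TPM); their libraries overlapped in control and Splice del. HOXA7 and HOXA9 had 74.6% and 72.6% of their exon bases in common with other counted genes, so their levels of at most 3 counts are uncertain. HOXA10 was affected in the same way over 38.4% of its exons.

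In most paralogue groups 1 gene held nearly all the RNA. Averaged over the 4 lines, the highest member per length was a HOXC gene in 9 of the 13 groups, a HOXB gene in 3 groups and a HOXD gene in 1. HOXC10 held 99.98% of the TPM of its group, HOXC13 99.99% and HOXB2 99.9%. The RNA was less concentrated in group 5, where HOXC5 held 67.9% and HOXA5 was next, in group 12 (HOXC12, 76.3%), in group 6 (HOXC6, 81.8%) and in group 8 (HOXC8, 89.0%).

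The clusters took different shares of the HOX counts in the 4 lines. HOXC genes held 82.6%, 82.2% and 83.7% of the HOX counts in the A333fs libraries, 81.1%, 81.1% and 81.8% in control, 79.1%, 78.6% and 78.99% in Splice del, and 74.7%, 76.6% and 75.8% in C321fs cells. HOXB genes held 15.1% to 16.6% in A333fs, 17.4% to 17.9% in control, 19.7% to 20.03% in Splice del and 21.7% to 23.6% in C321fs cells. No line overlapped another in either share, with C321fs at one end and A333fs at the other. HOXA and HOXD genes held at most 1.38% and 0.375% of the HOX counts of a library, so the HOXB and HOXC shares mirror each other. In summed CPM, HOXC genes had 381 ± 14.9 in C321fs and 469 ± 15.4 in control cells (SD, n = 3). For HOXB genes the sums were 114 ± 8.86 and 102 ± 4.62 CPM. The shares are taken within a library and do not depend on how libraries were scaled to each other. The trend over GC content of each library was not removed from them.

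**Figure D2:**
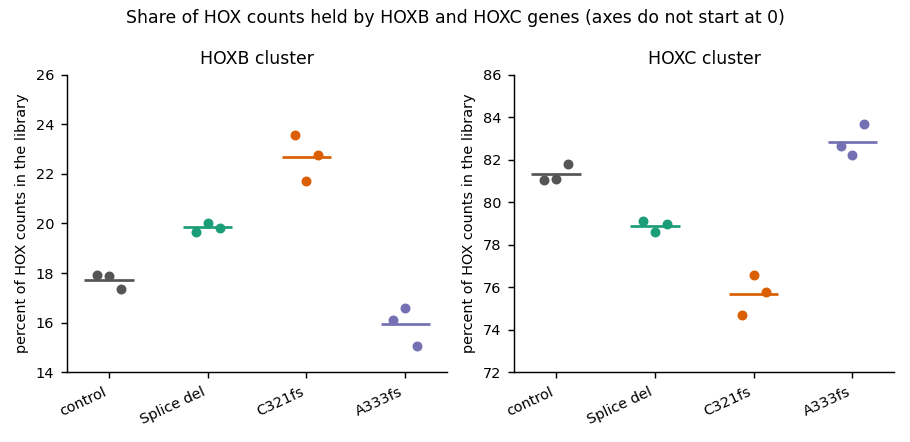
Percent of the HOX counts of each library that lay on HOXB genes (left) and HOXC genes (right). Points are libraries, lines are means of 3 and the axes do not start at 0. C321fs had the lowest HOXC share, 74.7% to 76.6%, and A333fs the highest, 82.2% to 83.7%.

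Of the 39 members, 25 passed the filter on low counts and were tested, 5 of 11 HOXA, 8 of 10 HOXB, all 9 HOXC and 3 of 9 HOXD genes. The other 14 had at most 6 counts in any library. Genes were tested with edgeR's quasi-likelihood test in 1 fit of all 12 libraries, with Benjamini-Hochberg adjustment over 14789 genes, and called at an adjusted p below 0.01 with a fold change over 1.5. In a test of any difference among the 4 lines, 12 of the 25 HOX genes passed an adjusted p of 0.01, against 56.2% of all genes tested: HOXA3, HOXB2, HOXB3, HOXB4, HOXB6, HOXC4, HOXC5, HOXC6, HOXC8, HOXC10, HOXC12 and HOXC13. The comparisons with control all use the same 3 control libraries.

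C321fs cells had more RNA from HOXA3, HOXA5, HOXB4 and HOXB6 than control cells, and less from 5 of the 9 HOXC genes, 4 of these by less than the fold limit. In C321fs, 4 HOX genes were called higher (HOXA3, HOXA5, HOXB4 and HOXB6), against 4.63% of all genes tested, and 1 was called lower (HOXC12), against 2.26%. Without the limit on the fold change, the 4 higher genes stayed and 5 were lower (HOXC4, HOXC5, HOXC10, HOXC12 and HOXC13), against 16.1% and 20.7% of all genes, so that these shares of the 25 lie near those of all genes. All 8 tested HOXB genes had a fold change above 1 and all 9 HOXC genes one below 1, most of them short of the threshold. The median log2 fold change was 0.44 for 5 HOXA genes, 0.49 for 8 HOXB genes and -0.34 for 9 HOXC genes, against 0.02 for all genes tested.

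HOXC13 had 89.4, 97.2 and 90.6 CPM in the control libraries, 64.9, 65.3 and 62.3 CPM in C321fs, 82.5, 82.1 and 84.002 CPM in Splice del and 92.2, 89.0 and 97.9 CPM in A333fs cells. All C321fs libraries lay below every other library. The C321fs level was lower than control by a factor of 1.44 (log2 -0.53, SE 0.05, adjusted p = 4e-06, edgeR), under the fold limit. Compared with C321fs, HOXC13 was 1.45-fold higher in A333fs and 1.29-fold higher in Splice del cells (log2 0.54 and 0.37, SE 0.05 for both). The differences from C321fs passed an adjusted p of 0.01 in all alternative fits, leaving out a library included. HOXC13-AS, the antisense gene beside it with which it shares 7.18% of its exon bases, was also lower in C321fs (log2 -0.40, SE 0.10, adjusted p = 0.00271), and the counting did not use the strand.

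HOXC4 had 50.9, 54.5 and 50.6 CPM in the control libraries and 49.0, 48.9 and 46.7 CPM in A333fs, 55.7, 52.2 and 55.9 CPM in Splice del and 40.1, 39.6 and 37.5 CPM in C321fs. The C321fs libraries again lay below all others. The factor against control was 1.33 (log2 -0.41, SE 0.06, adjusted p = 3.8e-05), and it passed the adjusted p in all alternative fits. HOXC5, which starts at the same base, was lower in C321fs by a like factor of 1.33 (7.12 ± 0.508 against 9.49 ± 0.456 CPM, SD, n = 3, adjusted p = 0.00156), which did not pass with library totals alone (log2 -0.25, adjusted p = 0.0324). HOXC6, the third gene of this start, had 16.8 ± 0.926 CPM in C321fs and 17.7 ± 1.16 CPM in control, a log2 fold change of -0.08 that did not pass. HOXC10 was lower in C321fs by a factor of 1.20 (179 against 214 CPM, adjusted p = 9.6e-04), a difference that did not pass with upper-quartile scaling or with library totals alone.

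HOXC12 is a low gene whose 3 C321fs libraries held 28, 22 and 24 counts, against 33, 48 and 38 in control, 59, 60 and 46 in Splice del and 34, 42 and 51 in A333fs cells. In CPM the C321fs libraries (0.763 to 0.852) were below all others (1.10 to 1.77). The change against control was -0.73 on the log2 scale (SE 0.20, adjusted p = 0.00689). That call was lost in 5 of 6 fits that left out a library (kept without control replicate 1), where log2 ranged from -0.84 to -0.61. It was also lost with DESeq2, upper-quartile scaling, library totals alone, a fit to the 2 lines alone, and the GC content and length trends removed, where log2 was -0.51 at its smallest size. Splice del exceeded C321fs 2.03-fold (log2 1.02, SE 0.19, adjusted p = 0.00185), a call that was lost without C321fs replicate 2 or Splice del replicate 2.

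HOXB4, known for its part in blood stem cell growth, had 0.882, 0.994 and 0.833 CPM in the control libraries and 1.07, 1.15 and 0.646 CPM in A333fs, 1.5997, 1.68 and 1.57 CPM in Splice del and 1.67, 1.53 and 1.68 CPM in C321fs. Splice del and C321fs did not overlap control or A333fs, and A333fs overlapped control. The levels correspond to 22 to 62 counts a library. HOXB4 was 1.80-fold higher in C321fs (log2 0.85, SE 0.20, adjusted p = 0.00271) and 1.78-fold higher in Splice del than in control (log2 0.84, SE 0.20, adjusted p = 0.00231). Each call held in 4 of 6 fits that left out a library: the first was lost without control replicate 1 or 3 and the second without control replicate 3 or Splice del replicate 2, with adjusted p up to 0.0115.

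HOXB6 had 1.49, 1.67 and 1.32 CPM in the control libraries and 1.68, 1.31 and 0.969 CPM in A333fs, 2.48, 2.07 and 2.19 CPM in Splice del and 2.65, 2.39 and 2.24 CPM in C321fs. As for HOXB4, all Splice del and C321fs libraries lay above all control and A333fs libraries. The C321fs level was 1.62-fold that of control (log2 0.70, SE 0.18, adjusted p = 0.00466), a call that held in 2 of 6 fits that left out a library (lost without C321fs replicate 1 or 2, or control replicate 1 or 3). HOXB6 shares 9.90% of its exon bases with the antisense gene HOXB-AS3. HOXB8 and HOXB9 had log2 fold changes of 0.91 and 0.88 in C321fs on 21 counts or fewer for HOXB9 and 36 or fewer for HOXB8, and neither passed.

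HOXA3, which acts in the development of the pharyngeal arches and thymus, had 54, 48 and 36 counts in the C321fs libraries, 34, 36 and 34 in Splice del, 36, 19 and 25 in A333fs and 18, 25 and 19 in control. In CPM these were 0.611 to 0.802 in the control libraries and 0.606 to 1.16 in A333fs, 0.877 to 1.18 in Splice del and 1.17 to 1.66 in C321fs. C321fs was 2.15-fold above control without overlap (log2 1.10, SE 0.25, adjusted p = 0.00207), the largest increase of the tested HOX genes against control, and the call was lost without control replicate 1 or C321fs replicate 2. HOXA5, which acts in lung and skeletal patterning, had 1.83, 1.76 and 1.11 CPM in control and 2.83, 2.29 and 2.17 CPM in C321fs cells. Its 1.55-fold difference (log2 0.63, SE 0.18, adjusted p = 0.00841) was just past the fold limit and was lost in 4 of 6 fits that left out a library (C321fs replicate 1 or 2, control replicate 2 or 3), with log2 down to 0.44, and with DESeq2 or a fit to the 2 lines alone.

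RefSeq lists 7 promoter windows for HOXA3 on the minus strand, and 2 of them hold a GATA motif. They are shown because GATA3 was the altered factor and HOXA3 had the largest increase. The GATA motif searched was GATA with A or T before it and A or G after it, on both strands, and capitals mark it. Per the paper, the GATA3 motifs enriched at the mutants' own peaks seem to lack this full sequence and hold a part, WGAT. That part (W is A or T) was not searched. The first window, at chr7:27113793-27114092, has 25 CpG, and the second, at chr7:27118308-27118607, has 6 (GRCh38.p14).
HOXA3 promoter, first window: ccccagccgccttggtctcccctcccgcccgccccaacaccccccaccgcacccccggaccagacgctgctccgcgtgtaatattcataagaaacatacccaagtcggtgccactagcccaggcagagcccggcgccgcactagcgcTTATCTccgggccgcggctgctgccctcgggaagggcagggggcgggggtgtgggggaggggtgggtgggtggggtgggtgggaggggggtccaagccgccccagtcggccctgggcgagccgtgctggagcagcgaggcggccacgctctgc
HOXA3 promoter, second window: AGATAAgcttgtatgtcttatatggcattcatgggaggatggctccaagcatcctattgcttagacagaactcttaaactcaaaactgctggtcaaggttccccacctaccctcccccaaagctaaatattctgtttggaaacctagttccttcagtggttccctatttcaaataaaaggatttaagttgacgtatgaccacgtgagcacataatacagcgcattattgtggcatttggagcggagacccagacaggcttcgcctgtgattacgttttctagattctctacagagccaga
A promoter window was found for 20 of the 39 members, 27 windows in all. A GATA motif was present in 7 of the 27 (25.9%), against 25% of 35116 promoter windows of this length, and the HOX-PBX motif TGATNNAT in 3 of 27 (11.1%), against 7.4%; both motifs can hold the letters TGAT, so their matches can overlap. A match in such a window is a description of its letters. The HOX windows had a median of 22 CpG, against 14 over all windows.

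Splice del cells differed from control at few HOX genes. HOXB4 was the 1 HOX gene called higher, against 6.21% of all genes tested, and 0 HOX genes were called lower with edgeR, against 4.53%. Without the fold limit 1 gene was higher (HOXB4, against 18.7%) and 1 lower (HOXC10, against 22.4%). Of the 25, 10 had an unadjusted p below 0.05, against 59% of all genes tested. HOXC10 had 182, 186 and 198 CPM in Splice del against 208, 223 and 209 CPM in control, a log2 difference of -0.18 (SE 0.05, adjusted p = 0.00938) that turned to 0.01 with library totals alone and passed in 3 of 9 other fits and in 1 of 6 fits that left out a library (without Splice del replicate 3). DESeq2 likewise called 1 gene. The median log2 fold change was 0.42 for HOXB and 0.02 for HOXC genes, against 0.03 for all genes tested, and 7 of 8 HOXB genes were above 0.

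A333fs cells had no HOX gene past both thresholds. With edgeR, 0 of 25 were called higher, against 5.46% of all genes tested, and 0 lower, against 6.81%, and DESeq2 also called 0. At an unadjusted p below 0.05 there were 7 of 25, against 63.5% of all genes tested. Without the fold limit 0 were higher (against 21.0%) and 4 were lower (against 26.4%): HOXB2, HOXB3, HOXC10 and HOXC11. HOXC10 had 181 ± 6.2 CPM against 214 ± 8.1 CPM in control (SD, n = 3, log2 -0.24, SE 0.05), and HOXC11 had 51.3 ± 1.13 against 61.5 ± 1.49 CPM (log2 -0.26, SE 0.07), which passed in 0 of 6 fits that left out a library. Neither passed with upper-quartile scaling or library totals alone, HOXC11 did not with the GC content and length trends removed, and HOXC10 did not without A333fs replicate 2. The median log2 fold change was -0.25 for HOXB and -0.01 for HOXC genes, against 0.01 for all genes tested. With the trends over GC content and length removed, these medians were -0.04 for HOXB genes, 4 above 0 and 4 below, 0.26 for HOXC genes and -0.05 for all genes.

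HOXB2 had 74.4, 77.2 and 71.3 CPM in the control libraries and 58.8, 59.2 and 56.5 CPM in A333fs, 72.9, 76.8 and 79.8 CPM in Splice del and 90.7, 74.9 and 75.2 CPM in C321fs. All A333fs libraries lay below all others, while control, Splice del and C321fs overlapped. The A333fs level was lower than control by a factor of 1.28 (log2 -0.35, SE 0.07, adjusted p = 5.2e-04), lower than C321fs by 1.38 and lower than Splice del by 1.31 (adjusted p = 1.6e-04 and 0.00106). Both differences from the other mutant lines passed in all alternative fits. The difference from control did not pass with library totals alone or with the trend over GC content and length removed, where log2 was -0.14 (adjusted p = 0.0158).

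HOXB3 had 17.8, 20.1 and 17.5 CPM in the control libraries and 14.8, 16.7 and 13.2 CPM in A333fs, 23.8, 21.6 and 20.2 CPM in Splice del and 20.6, 19.7 and 22.3 CPM in C321fs. The A333fs libraries were again the lowest. The factor was 1.24 against control (log2 -0.31, SE 0.09, adjusted p = 0.00918), 1.40 against C321fs and 1.47 against Splice del (adjusted p = 0.00107 and 5.6e-04). The difference from control passed in 1 of 6 fits that left out a library (without A333fs replicate 2) and in 4 of 9 other fits, with adjusted p up to 0.144. Those from the other mutant lines passed in all fits.

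**Figure D3:**
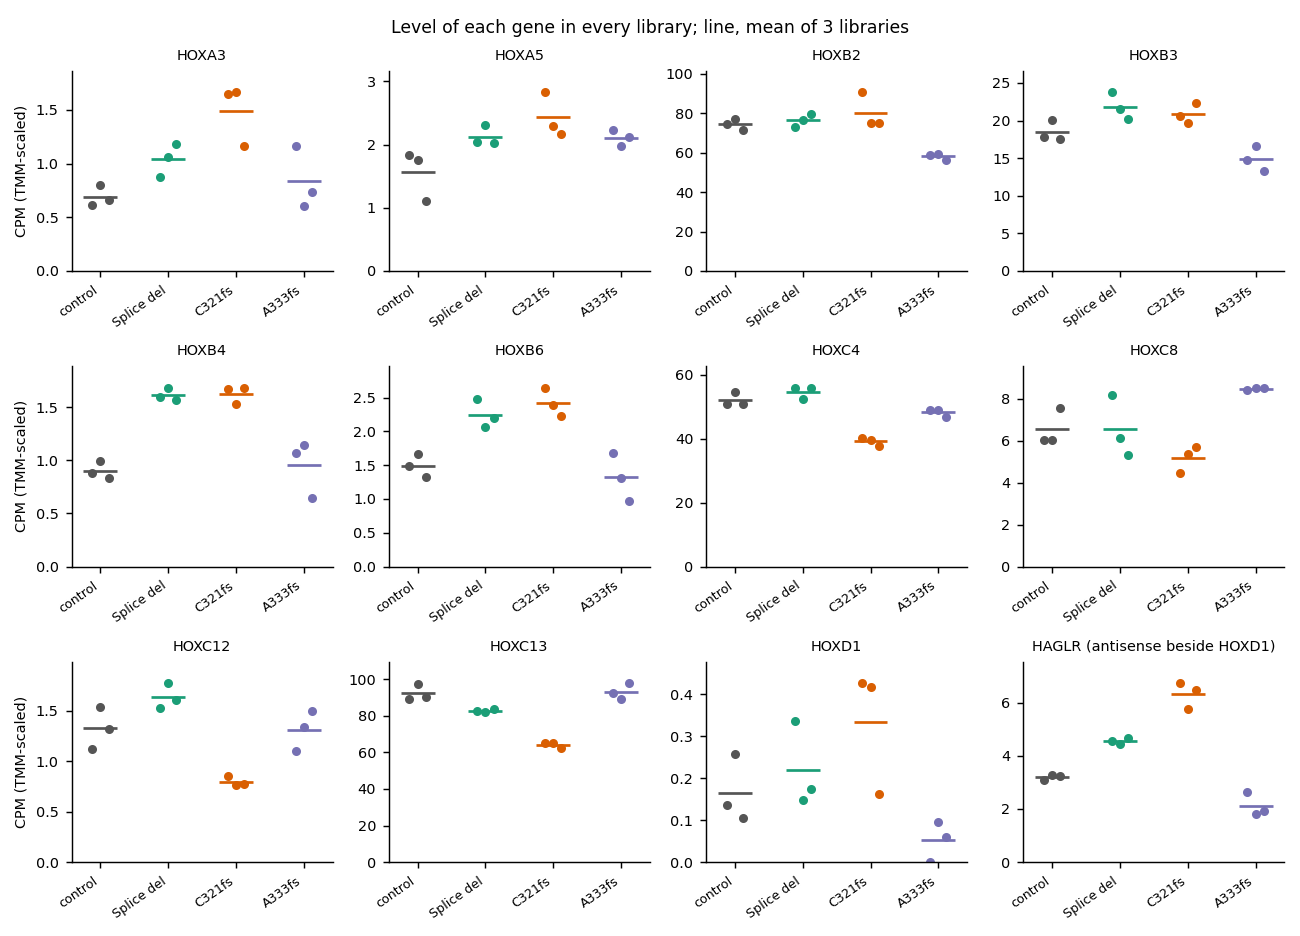
Level of 11 HOX genes and HAGLR in each of the 12 libraries, in TMM-scaled CPM. Points are libraries and lines the mean of 3. HOXC4, HOXC12 and HOXC13 are lowest in all C321fs libraries, and HOXB2 and HOXB3 are lowest in all A333fs libraries.

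The mutant lines also differed from each other. Between A333fs and C321fs, 1 HOX gene was called higher in A333fs (HOXC8, against 2.47% of all genes) and 3 were called lower (HOXB4, HOXB6 and HOXD1, against 3.08%). Without the fold limit there were 3 higher (HOXC4, HOXC8 and HOXC13, against 6.8%) and 5 lower (HOXB2 and HOXB3 in addition, against 8.89%). HOXC8, which patterns motor neurons of the forelimb, had 8.39, 8.52 and 8.51 CPM in A333fs, 4.47, 5.34 and 5.67 CPM in C321fs, 6.04, 6.03 and 7.54 CPM in control and 8.18, 6.12 and 5.33 CPM in Splice del cells. A333fs lay above all other libraries. It exceeded C321fs 1.64-fold (log2 0.72, SE 0.14, adjusted p = 0.00146), and this call was kept in all 6 fits that left out a library and under every other fit. The log2 fold changes of HOXC8 against control, -0.34 in C321fs and 0.38 in A333fs, did not pass.

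HOXB6 was lower in A333fs than in C321fs by a factor of 1.85 (log2 -0.89, SE 0.18, adjusted p = 0.0019), a call lost without A333fs replicate 3 or with the 2 lines alone. HOXB4 was lower by a factor of 1.72 (log2 -0.78, SE 0.20, adjusted p = 0.00794), and this was lost in 5 of 6 fits that left out a library (kept without A333fs replicate 2) and in 5 of 9 other fits. Between A333fs and Splice del, 0 HOX genes were called higher, against 1.03% of all genes, and 2 lower, HOXB4 and HOXB6, against 1.97%. Their log2 fold changes were -0.77 and -0.78 (SE 0.19 and 0.18, adjusted p = 0.00981 and 0.0061), and each call was kept in 1 of 6 fits that left out a library: HOXB4 without A333fs replicate 2 and HOXB6 without A333fs replicate 1. The HOXB4 call was kept in 2 of 9 other fits and that of HOXB6 in 8. Without the fold limit 0 were higher (against 4.63%) and 4 lower (against 7.29%), HOXB2 and HOXB3 in addition.

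Splice del and C321fs differed at HOXC genes. HOXC12 was called higher in Splice del, 1 gene against 1.76% of all genes, and 0 were called lower with edgeR, against 0.879%. DESeq2 also called 1 gene. Without the fold limit HOXC4, HOXC5, HOXC12 and HOXC13 were higher in Splice del, 4 genes against 4.18%, and 0 were lower, against 2.14%. HOXC4 was 1.40-fold higher (log2 0.48, SE 0.06, adjusted p = 2.1e-05) and passed in all alternative fits, as did HOXC13. HOXC5 passed in 2 of 6 fits that left out a library (without C321fs replicate 1 or Splice del replicate 3), with adjusted p up to 0.0597, and not in a fit to the 2 lines alone. All 9 HOXC genes had a log2 fold change above 0, with a median of 0.36.

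**Figure D4:**
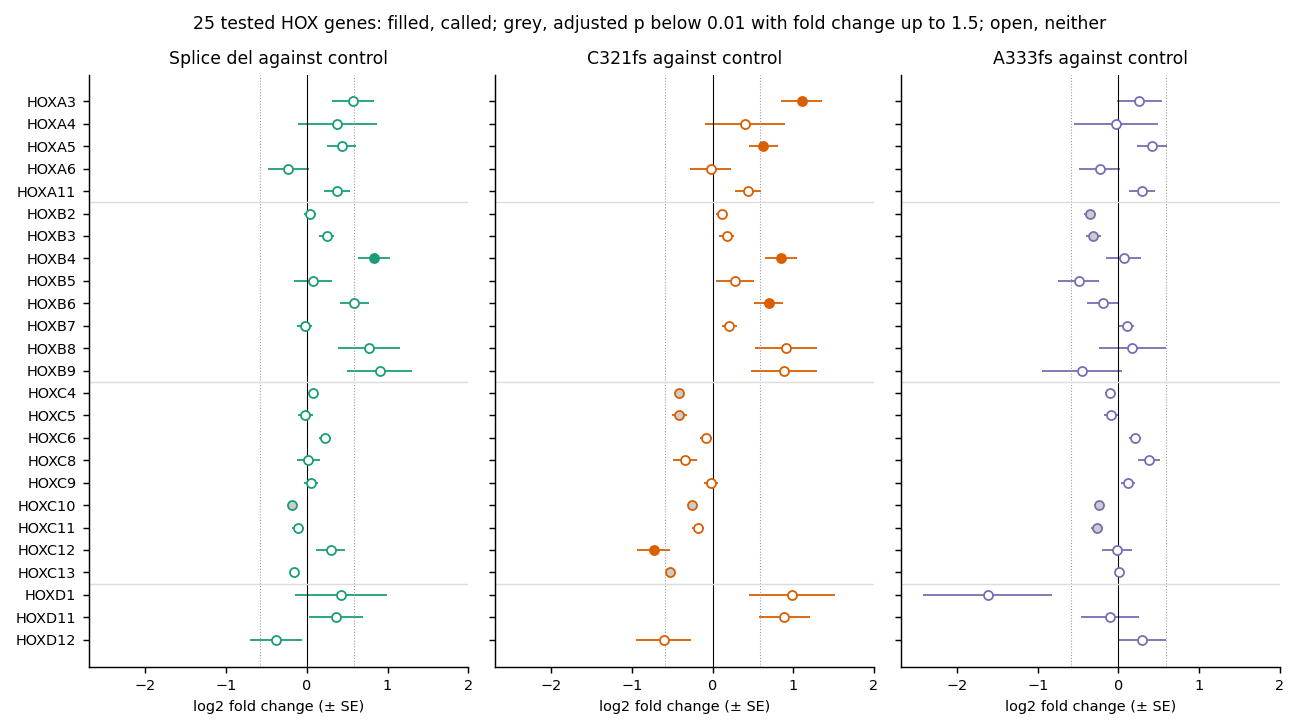
Log2 fold change with its SE of the 25 tested HOX genes in each mutant line against control, ordered by cluster and paralogue group. Filled points were called, grey points passed an adjusted p of 0.01 with a fold change of at most 1.5, open points neither, and dotted lines mark a 1.5-fold change. In C321fs all 8 HOXB points lie right of 0 and all 9 HOXC points left of it.

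The scaling of the libraries bears on the small differences. TMM factors were 0.884 to 0.943 in control and 1.01 to 1.05 in the mutant lines, and with library totals alone the all-gene median of the log2 fold change moved to 0.19 in C321fs, 0.22 in Splice del and 0.16 in A333fs cells. Relative to the median of all genes, 8 or 9 of 9 HOXC genes were below it in C321fs and 7 or 8 of 8 HOXB genes above it under all 22 fits, leaving out a library included. Counted from 0, 7 of 9 HOXC genes were below in C321fs with library totals alone or with upper-quartile scaling. In A333fs the HOXC genes had no such direction, with 3 to 6 of 9 above the median of all genes. Libraries also differed in their trend over GC content, with slopes per 10 percentage points of 0.153 to 0.233 log2 in control and -0.170 to 0.0590 log2 in the mutant lines, and the tested HOX genes had a median exon GC content of 56.2%, against 49.6% for all genes tested. With this trend and that of length removed, 8 of 9 HOXC genes were below 0 in C321fs and 6 of 9 above 0 in A333fs cells.

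HOXD1 is the anterior end of the HOXD cluster and had very few counts: 4, 8 and 3 in the control libraries and 0, 3 and 2 in A333fs, 13, 5 and 5 in Splice del and 14, 12 and 5 in C321fs libraries. A333fs was at the floor. Against the floor of 3 counts a library, C321fs was at least 3.58-fold higher in the mean of its libraries. The fitted difference passed (adjusted p = 0.00978), was lost in 4 of 6 fits that left out a library (A333fs replicate 1 or 3, C321fs replicate 1 or 2), and was not called with DESeq2. The promoter window of HOXD1 is shown because its neighbour HAGLR starts within the gene on the other strand; it lies on the plus strand at chr2:176188418-176188717 (GRCh38.p14), holds 36 CpG and has no match to either motif.
HOXD1 promoter: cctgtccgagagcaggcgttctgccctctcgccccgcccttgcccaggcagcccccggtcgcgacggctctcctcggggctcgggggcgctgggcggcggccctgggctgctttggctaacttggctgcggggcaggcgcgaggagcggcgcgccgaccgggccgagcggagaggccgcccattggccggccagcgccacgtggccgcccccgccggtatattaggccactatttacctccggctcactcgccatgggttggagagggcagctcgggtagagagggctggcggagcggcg

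HAGLR, a long noncoding RNA antisense to the HOXD cluster, overlaps HOXD1 by 380 bases of genome and shares exon bases with it. It had 3.09, 3.27 and 3.23 CPM in the control libraries and 2.65, 1.82 and 1.91 CPM in A333fs, 4.57, 4.43 and 4.67 CPM in Splice del and 6.73, 5.76 and 6.48 CPM in C321fs. No line overlapped another, and the order of the means was that of HOXD1. HAGLR was called higher in C321fs (1.98-fold, log2 0.98, SE 0.12, adjusted p = 1.8e-05) and lower in A333fs cells (by a factor of 1.51, log2 -0.59, SE 0.14, adjusted p = 0.00205). C321fs exceeded A333fs by 1.58 on the log2 scale (adjusted p = 2.5e-07). Since strand was not used, reads of HOXD1 and HAGLR near this overlap cannot be told apart.

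The clusters hold 26 other counted genes, of which 7 were tested, and HAGLR was the only one called against control. It was 1 of 7 in C321fs, against 4.63% of all genes called higher, and in A333fs, against 6.81% called lower. HOTAIR, a long noncoding RNA of the HOXC cluster that is known to bind Polycomb complexes, had 31.0, 31.2 and 29.9 CPM in the control libraries and 34.5, 34.7 and 33.4 CPM in A333fs, 42.5, 45.1 and 41.8 CPM in Splice del and 35.7, 37.2 and 39.2 CPM in C321fs. All mutant libraries were above control, by log2 0.49 for Splice del (SE 0.06, adjusted p = 5.2e-06), 0.28 in C321fs (adjusted p = 9.0e-04) and 0.15 in A333fs cells (adjusted p = 0.0298), all under the fold limit and the last not past the adjusted p. Of 40 flanking genes, the 5 nearest on each side of each cluster, 24 were tested and 3 were called in 1 line each: SKAP2 beside HOXA, ATP5G1 beside HOXB and FLJ12825 beside HOXC. This was 1 of 24 in each line. Of all genes tested, 4.63% were called higher in C321fs, 4.53% lower in Splice del and 5.46% higher in A333fs cells. SKAP2, an adaptor protein gene, had 21.5 ± 0.693 CPM in control and 42.9 ± 2.76 CPM in C321fs cells (log2 0.99, SE 0.07, adjusted p = 1.0e-07). ATP5G1 was lower in Splice del (log2 -0.63, SE 0.07) and FLJ12825 higher in A333fs cells (log2 0.69, SE 0.14).

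Genes of known HOX regulators were read in the same fit. Calls in these lists, the retinoic acid list included, were not read with the trends over GC content and length removed. Of 27 Polycomb genes, all tested, 0 were called with edgeR in any mutant line against control. At an unadjusted p below 0.05 there were 19 in A333fs, 20 in Splice del and 18 in C321fs cells, against 63.5%, 59.0% and 57.8% of all genes tested, and DESeq2 called 0. Of 15 trithorax and H3K27 demethylase genes, SETD1A was called lower in C321fs (log2 -0.62, SE 0.08, against 2.26% of all genes), and SETD1A, DOT1L and KMT2B, which encode histone methyltransferases, were called lower in A333fs cells (log2 -0.72, -0.74 and -0.66), 3 of 15 against 6.81% of all genes. Of 8 tested TALE cofactors, MEIS3 was called higher in Splice del (log2 1.13, SE 0.33), at 0.594 CPM, 1 of 8 against 6.21% of all genes. Without the fold limit 1 of the 8 was higher and 1 lower in C321fs cells, against 16.1% and 20.7% of all genes. In A333fs cells 1 was also higher and 1 lower, against 21.0% and 26.4%. The higher gene in C321fs was MEIS2 (log2 0.47, SE 0.11, adjusted p = 0.00284), which did not pass the fold limit.

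The retinoic acid list had 12 tested genes, of which 4 were called higher in A333fs (against 5.46% of all genes), 4 in Splice del (6.21%) and 1 in C321fs cells (4.63%), and 1 was called lower in each line (6.81%, 4.53% and 2.26%). The receptor gene RARA was called lower in all 3 mutant lines, from 261 ± 28.4 CPM in control to 132 ± 1.68 CPM in A333fs, 158 ± 7.72 CPM in Splice del and 165 ± 5.17 CPM in C321fs cells (log2 -0.99, -0.72 and -0.66). CYP26A1 and CYP26B1, which encode enzymes that break down retinoic acid, and the receptor gene RARB were called higher in Splice del and A333fs cells, at levels of at most 3.13 CPM. For RARB the log2 fold changes were 1.42 (SE 0.40) and 2.11 (SE 0.36). In C321fs cells CYP26A1 had 0.592 ± 0.157 CPM and CYP26B1 0.456 ± 0.0558 CPM, against 0.817 ± 0.233 and 0.473 ± 0.132 CPM in control. ALDH1A3, which encodes an enzyme that makes retinoic acid, was called higher in A333fs cells (log2 0.86, SE 0.06), and the cofactor gene NRIP1 was called higher in Splice del and C321fs cells (log2 0.92 and 0.86, SE 0.12 for both). The part of these genes in the HOX levels was not tested.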

How the data were processed

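The 12 RNA-seq libraries were used; the ChIP-seq of the same lines was not used here, and 1 gene is not reported here. The deposited values are raw counts: per the file headers and the methods, the authors trimmed read pairs, aligned them to hg38 and assigned proper pairs to genes with featureCounts 1.6.4, ignoring strand and dropping fragments that overlap several genes. Header paths name STAR and the submitters' notes HISAT2, so the aligner is not settled.

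After filterByExpr (14789 genes kept) and TMM scaling, edgeR 4.0.16 in R 4.3.3 (glmQLFit, glmQLFTest) was run with a coefficient for each line. SE is the log2 fold change over the root of F. Members and gene lists were chosen with earlier results of these data known. HOX genes called in any comparison are given by library, list genes where called against control, and HOXB2, HOXB3, HOXC4, HOXC5, HOXC10, HOXC11, HOXC13, HOTAIR, HOXC13-AS and MEIS2 were added after their values were seen.

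Alternatives were RLE or upper-quartile scaling, library totals alone, no filter, DESeq2 1.42.0, fits to 2 lines, an adjusted p of 0.05, a replicate block, GC content and length trends removed (loess, span 0.3), and each library left out; dropping the fold limit was added after seeing the data. Same-numbered libraries did not deviate together (mean correlation -0.0092 over 18 pairs). The script was tested on simulated data.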

Additional observations from a re-analysis of the deposited data

Results flagged for a closer look

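Mutant lines differed from each other at 5 HOX genes, by edgeR's test of 1 mutant line against another. Each mutant was in 1 pool, so these are differences between pools. A333fs and C321fs differed at HOXB4 (log2 -0.78), HOXB6 (-0.89), HOXC8 (0.72) and HOXD1 (-2.60). Of all genes tested, 2.47% were called higher and 3.08% lower in this comparison. A333fs and Splice del differed at HOXB4 (-0.77) and HOXB6 (-0.78), against 1.97% of all genes called lower. Splice del and C321fs differed at HOXC12 (1.02), against 1.76% called higher. Of the 5 HOX genes, HOXC8 was the one called in every alternative fit and without any single library. HOXD1 had at most 14 counts in a library, and its fitted difference is no bound.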

How the results depend on the processing

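Counts of called HOX genes depended on the thresholds and on the fit used. In Splice del against control (1 called) the count was 2 with an adjusted p of 0.05, no limit on the fold change, upper-quartile scaling, no filter, a fit to the 2 lines alone, the GC content and length trends removed, and that removal with a replicate block, and 3 with library totals alone. In C321fs against control (5 called) it was 9 with no limit on the fold change and 3 with DESeq2 or a fit to the 2 lines alone. In A333fs against control (0 called) it was 4 with no limit on the fold change, and in Splice del against C321fs (1 called) also 4. In A333fs against C321fs (4 called) it was 10 with an adjusted p of 0.05, 8 with no limit on the fold change, 2 with DESeq2, 1 with the 2 lines alone and 2 with the replicate block. In A333fs against Splice del (2 called) it was 4 with no limit on the fold change, 0 with the 2 lines alone, and 1 with RLE, upper-quartile scaling, DESeq2, the replicate block, the trends removed, or both together. The causes were not tested.

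Leaving out 1 library gave 0 to 1 called genes in Splice del against control, 1 to 5 in C321fs, 0 to 0 in A333fs, 0 to 1 in Splice del against C321fs, 2 to 5 in A333fs against C321fs and 0 to 2 in A333fs against Splice del. It gave 10 to 13 genes that differed among the lines, and 16 to 16, 16 to 17, 17 to 19 and 14 to 16 expressed genes in control, Splice del, C321fs and A333fs cells. Same-numbered libraries share only a number, so the replicate block adds no design information; beside the counts above it gave no other change over 1.5 times. With the block HOXB4 in A333fs against C321fs and Splice del, HOXD1 in A333fs against C321fs, HOXB3 in A333fs against control and HOXC10 in Splice del against control no longer passed. Over the called genes, 142 of 207 values stayed past both thresholds, 65 did not, and 0 changed sign. The 207 include, for each call, the looser limit on the adjusted p, which reuses the main fit and cannot lose a call. The share of 142 in 207 therefore overstates how often a new fit kept a call. HOXC8 was the one gene with a call that no single library decided in any comparison.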
